A study of Mus musculus with 8 samples.

Results

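The genes described here are 10 receptors and intracellular messengers of bone morphogenetic protein (BMP) signalling in liver macrophages: the receptors Acvrl1, Eng, Bmpr2 and Bmpr1a, and Smad1, Smad4, Smad5, Smad6, Smad7 and Smad9. They were chosen by symbol, and all 10 were found among 35906 genes of the count table and passed the filter on low counts, which left 15212 genes for testing. Macrophages came from digested livers of wild-type BALB/c mice and were sorted as CD45+/CD31-/F4/80+ cells, in 4 libraries from mice given carbon tetrachloride (CCl4) and 4 libraries from mice given vehicle. CCl4 damages hepatocytes, and repeated dosing scars the liver, and the labels call the livers fibrotic and healthy. How much CCl4 was given, and for how long, the sources used here do not state. The comparison asks how liver macrophages of fibrotic livers differ from those of healthy ones. The labels do not tie a library to its own mouse, and p-values therefore cover the spread among these libraries, some of which may be technical.

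BMP ligands bind a complex of type I receptors, such as the products of Acvrl1 (ALK1) and Bmpr1a (ALK3), with type II receptors such as that of Bmpr2. The type I receptor phosphorylates Smad1, Smad5 or Smad9, which join Smad4, enter the nucleus and switch on targets such as the Id genes. Smad6 and Smad7 inhibit the pathway. In mouse liver, BMP9 (the product of Gdf2) and BMP10 act through ALK1, with endoglin (Eng) as co-receptor, and this niche signal is known to support the identity of resident Kupffer cells.

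Bmpr1a was the member with a clear difference between the groups. It fell to 2.15 ± 0.84 CPM (counts scaled to the library total and TMM-normalized; SD, n = 4) in CCl4 libraries, against 6.83 ± 1.70 CPM in vehicle libraries (SD, n = 4). The other 9 members did not pass the test, Acvrl1 and the Smads included. Among the genes around the pathway, the BMP targets Id1 and Id3 fell, as did the ligand genes Gdf2 and Bmp2, while Tgfbr1 and Smad3 of the related TGF-beta branch rose. Markers of Kupffer cells and of endothelial cells fell in the same libraries, and their values stand beside the results below.

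Sequences around a RefSeq transcription start of some genes of this comparison are printed first. They are Bmpr1a, the receptor gene that fell, Bmpr2, and Id3, the most abundant target gene that fell. Bmpr2 did not pass, but its CCl4 libraries all lay above the vehicle ones in TMM-normalized CPM. Each sequence runs 5′ to 3′ on the strand of the gene and covers 250 bases before and 50 bases after the transcription start in RefSeq (build GRCm38.p6). Of the 10 members, 7 were matched by symbol to that table. The Bmpr1a and Bmpr2 windows lie wholly inside the spans given below for these genes, which come from GENCODE M21. For these genes the 2 annotations thus place the start differently. Capitals mark GGCGCC, a GC-rich element bound by Smad1 and Smad5, or CAGAC and its reverse complement GTCTG, the short element bound by Smad3 and Smad4.
Bmpr1a, chr14:34502497-34502796, minus strand: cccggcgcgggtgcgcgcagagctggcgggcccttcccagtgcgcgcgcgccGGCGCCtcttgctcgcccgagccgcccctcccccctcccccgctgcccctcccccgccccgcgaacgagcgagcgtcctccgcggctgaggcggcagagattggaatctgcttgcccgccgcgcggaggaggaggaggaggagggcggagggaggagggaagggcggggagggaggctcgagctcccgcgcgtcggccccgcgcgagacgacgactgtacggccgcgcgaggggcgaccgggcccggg
Bmpr2, chr1:59764029-59764328, plus strand: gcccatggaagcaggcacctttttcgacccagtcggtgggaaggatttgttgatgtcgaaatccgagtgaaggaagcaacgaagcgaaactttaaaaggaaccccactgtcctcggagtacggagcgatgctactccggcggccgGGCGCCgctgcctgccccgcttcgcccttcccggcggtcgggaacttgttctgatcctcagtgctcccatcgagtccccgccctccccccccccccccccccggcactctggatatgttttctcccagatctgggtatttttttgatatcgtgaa
Id3, chr4:136143572-136143871, plus strand: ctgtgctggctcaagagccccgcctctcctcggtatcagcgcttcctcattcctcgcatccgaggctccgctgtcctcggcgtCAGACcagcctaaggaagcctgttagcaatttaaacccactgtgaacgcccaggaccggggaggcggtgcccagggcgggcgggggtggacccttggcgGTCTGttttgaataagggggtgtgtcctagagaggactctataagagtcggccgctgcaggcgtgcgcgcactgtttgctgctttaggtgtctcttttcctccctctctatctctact

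The Bmpr1a window held 1 GGCGCC, starting at position -198 from the start site, and the Bmpr2 window held 1 at position -105. Smad9 held 1 at position -51, and Smad5 held it in the windows of 2 of its 3 alternative starts, at positions 24 and -19. These 2 Smad5 windows overlap, and both positions are the same site. This element reads the same on both strands, and it was present in 11.9% of all 32851 promoter windows and in 18.8% of those of tested genes. The Id3 window held CAGAC or GTCTG at positions -167 and -68, the Eng window at -214 and -127, and the third Smad5 window at -21. Searched on both strands, that shorter element was present in 49.6% of all windows and in 47.6% of those of tested genes, and the letters of these 2 motifs do not overlap. These matches describe letters and say nothing about binding.

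Library totals ran from 19489104 to 26196063 estimated counts. CCl4 4 and vehicle 2 stood apart, with the lowest totals, the most genes above 0 (23868 and 23025, against 19265 to 21670 in the other libraries) and the highest summed level of olfactory and vomeronasal receptor genes (2838 and 2853 CPM, against 721.2 to 1468 CPM). Calls that end without both of them are given beside each gene. Of 7 pan-macrophage markers, 1 rose, 1 fell and 5 did not pass, and their summed level was 47370 to 60921 CPM in CCl4 and 21220 to 24673 CPM in vehicle libraries. Lyz2, the lysozyme gene, rose (47034 ± 6266 CPM in CCl4, 16441 ± 2578 CPM in vehicle libraries, SD, n = 4 each; log2 fold change 1.52, edgeR adjusted p = 0.000318), and Aif1, named after its values were seen, fell by 1.02 on the log2 scale (edgeR adjusted p = 0.00907). Cd68, a lysosomal glycoprotein of macrophages, averaged 2167 ± 383 CPM in CCl4 and 1800.4 ± 123 CPM in vehicle libraries and did not pass. Of 13 Kupffer cell markers, 11 fell, with a median log2 fold change of -1.72. Their summed level was 7743 to 13766 CPM in CCl4 and 23642 to 34344 CPM in vehicle libraries, and Clec4f, a lectin of Kupffer cells, had a log2 fold change of -1.72 (edgeR adjusted p = 0.000977). Of 8 markers of monocyte-derived and scar macrophages, 7 rose, with a summed level of 6891 to 14396 CPM in CCl4 and 282.0 to 657.8 CPM in vehicle libraries. Of 11 neutrophil markers 7 rose, and of 8 mesothelial and cholangiocyte markers 4 rose, while 1 of 9 hepatocyte and 1 of 10 lymphocyte markers fell. Endothelial RNA was present despite the CD31 gate. Of 20 endothelial markers, 14 fell, their summed level was 299.7 to 500.2 CPM in CCl4 and 680.4 to 1230 CPM in vehicle libraries, and none was at 0 in all libraries of a group.

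**Figure D1:**
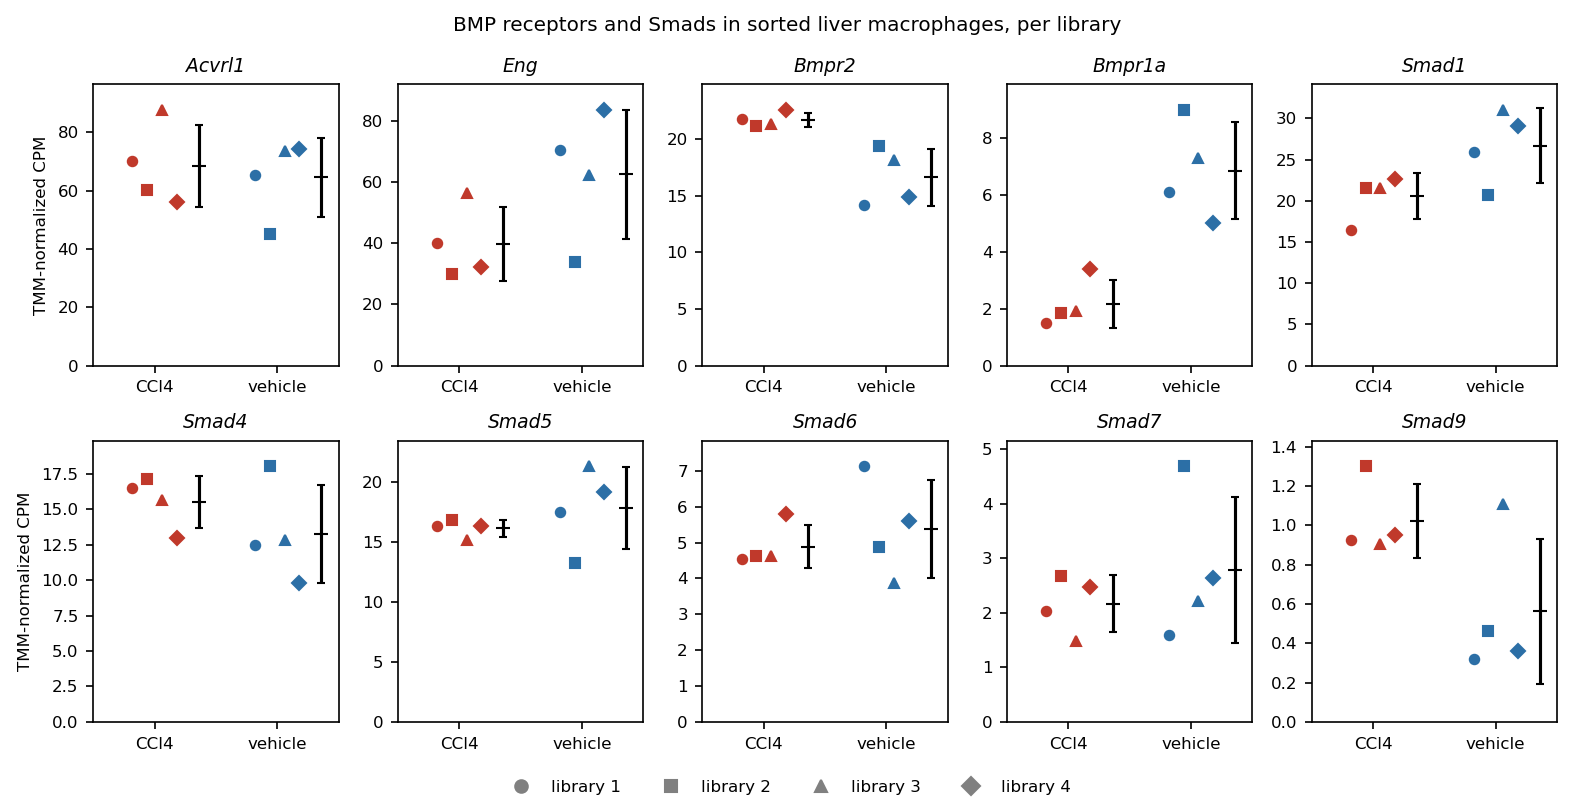
Level of each of the 10 members in TMM-normalized CPM (linear axes from 0) in CCl4 (red) and vehicle (blue) libraries, 1 point per library with the mean and SD beside it (n = 4 per group). The groups are apart for Bmpr1a, where CCl4 lies below vehicle, and for Bmpr2, where CCl4 lies above vehicle, and overlap for the other 8 genes.

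Of the 10 members, 1 was lower and 0 were higher in CCl4 with the quasi-likelihood test of edgeR at an adjusted p under 0.05, where 15.2% of all 15212 tested genes passed, 8.93% higher and 6.26% lower. At an unadjusted p under 0.05, 1 member was higher (Bmpr2) and 3 were lower (Bmpr1a, Eng and Smad1), where 28.2% of all tested genes passed, 15.4% higher and 12.9% lower. DESeq2 called 0 members higher and 1 lower at an adjusted p under 0.05, where it called 19.9% of all tested genes, 11.8% higher and 8.11% lower. With libraries scaled by their totals alone, 2 members passed in edgeR, both lower, where 16.5% of all tested genes did, 7.11% higher and 9.41% lower. The libraries of the groups did not overlap for 2 of 10 members, against 22.5% of all tested genes. The median log2 fold change was -0.14 over the members and -0.03 over all tested genes. Without vehicle 2, 4 members passed (1 higher, 3 lower), where 17.3% of all tested genes did, 9.73% higher and 7.53% lower. Without vehicle 2 and CCl4 4 together, 3 members passed, all lower, where 18.8% of all tested genes did, 11.0% higher and 7.76% lower. Fewer cells of a type and less RNA per cell cannot be told apart in these bulk libraries.

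**Figure D2:**
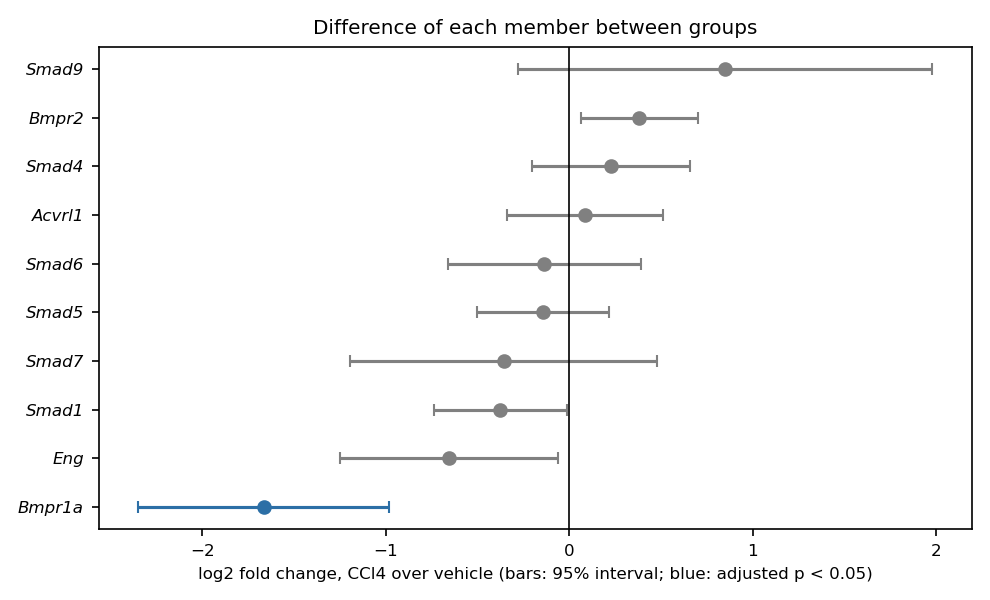
Log2 fold change of each member, CCl4 over vehicle, from edgeR's fit (point) with its 95% confidence interval (bar), ordered by value. Bmpr1a, at -1.66, is the member that passed at an adjusted p under 0.05, and the bars of Eng, Smad1 and Bmpr2 also lie to 1 side of 0 before adjustment.

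Per transcript length, Acvrl1 was the most abundant member in both groups. Acvrl1 averaged 42.0 ± 5.4 TPM (abundance scaled by transcript length within a library) in CCl4 and 46.0 ± 14.2 TPM in vehicle libraries (SD, n = 4 each), above 83.0% of all tested genes by its mean over the 8 libraries. Eng followed, at 18.9 ± 5.9 TPM in CCl4 and 35.1 ± 12.8 TPM in vehicle libraries. The libraries of Acvrl1 and Eng overlapped in the vehicle group and not in the CCl4 group.
Smad1 came next on the TPM scale, at 10.3 ± 1.8 TPM in CCl4 and 12.4 ± 2.4 TPM in vehicle libraries, followed by Smad4 (10.2 ± 2.3 and 6.66 ± 2.15 TPM, CCl4 and vehicle) and Smad5 (5.45 ± 0.75 and 6.01 ± 0.94 TPM). The Smad4 values rest in part on Smad4-204, a 487-base transcript not marked as protein-coding. It held 40.2% of Smad4 TPM in CCl4 and 21.6% in vehicle libraries on average. Its estimated counts were 7.20 to 30.7 in CCl4 and 19.1 or fewer in vehicle libraries. The protein-coding Smad4-201 averaged 5.53 ± 0.60 TPM in CCl4 and 4.98 ± 1.04 TPM in vehicle libraries. For Smad5, the leading transcript was a 1398-base form marked as a retained intron. This form held 52.4% of Smad5 TPM in CCl4 and 50.3% in vehicle libraries on average. The main protein-coding Smad5 transcript averaged 2.52 ± 0.34 TPM in CCl4 and 2.88 ± 0.97 TPM in vehicle libraries. Its range overlapped those of Smad6 and Bmpr2 in each group, so the rank of Smad5 above them rests in part on the retained intron. Smad1 and Smad4 overlapped in CCl4 libraries, and Smad4 and Smad5 in vehicle libraries. Below them lay Bmpr2 (2.58 ± 0.77 TPM in CCl4, 2.09 ± 0.44 TPM in vehicle) and Smad6 (2.17 ± 0.49 TPM in CCl4, 2.59 ± 0.81 TPM in vehicle), whose ranges overlapped in each group. Smad7, at 0.85 ± 0.34 TPM in CCl4 and 1.36 ± 0.94 TPM in vehicle libraries, overlapped Bmpr1a in each group, at 0.56 ± 0.42 TPM in CCl4 and 1.61 ± 0.29 TPM in vehicle libraries. Smad9 was lowest by its mean, at 0.24 ± 0.05 TPM in CCl4 and 0.14 ± 0.09 TPM in vehicle libraries, and 1.64% of tested genes lay below it. The median tested gene had 6.97 TPM.

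Acvrl1 encodes ALK1, the type I receptor for BMP9 and BMP10 (chr15:101128522-101145336, plus strand, mm10). It had 70.1, 60.2, 87.7 and 56.2 CPM in CCl4 1 to 4, against 65.4, 45.05, 73.7 and 74.3 CPM in vehicle 1 to 4. The groups overlapped widely, with the highest library in the CCl4 group and the lowest, vehicle 2, in the vehicle group. On the log2 scale the fold change was 0.09 (SE 0.19, 95% interval -0.34 to 0.51, edgeR adjusted p = 0.826). Its sign turned under several other settings, from -0.29 with limma on the deposited FPKM values to 0.17 with a library left out, and it passed in none of the 18 alternatives. The interval leaves room for a difference of 0.51 on the log2 scale upward and 0.34 downward. Kupffer cell and endothelial marker sums were lower in every CCl4 library than in any vehicle library. The part of these cells in the Acvrl1 values was not tested.

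Eng encodes endoglin, the co-receptor that presents BMP9 and BMP10 to ALK1 (chr2:32646595-32682669, plus strand). It had 40.0, 30.05, 56.5 and 32.3 CPM in CCl4 1 to 4, against 70.5, 33.8, 62.2 and 83.5 CPM in vehicle 1 to 4. CCl4 3 was high within its group, and vehicle 2 lay among the CCl4 libraries, so the groups overlapped. Eng had a log2 fold change of -0.66 (SE 0.27, 95% interval -1.25 to -0.06), and edgeR's adjusted p was 0.137. Eng passed without vehicle 2 (-0.86, edgeR adjusted p = 0.0162) and without vehicle 2 and CCl4 4 together (-0.78, edgeR adjusted p = 0.0332). It also passed when libraries were scaled by their totals alone (edgeR adjusted p = 0.0404) and in limma on log2(FPKM + 1) (adjusted p = 0.044). Endothelial cells express Eng strongly. The summed level of the 20 endothelial markers was 375.8, 326.1, 500.2 and 299.7 CPM in CCl4 1 to 4, against 960.3, 680.4, 978.9 and 1230 CPM in vehicle 1 to 4. CCl4 3 and vehicle 4 were highest and vehicle 2 lowest within their groups for both Eng and the markers, whereas the lowest CCl4 library was CCl4 2 for Eng and CCl4 4 for the markers. The part of endothelial RNA in the Eng values was not tested.

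Bmpr2 encodes the type II receptor that activates ALK1 and ALK3 (chr1:59763400-59879014, plus strand). It had 21.7, 21.1, 21.3 and 22.5 CPM in CCl4 1 to 4, against 14.2, 19.4, 18.1 and 14.8 CPM in vehicle 1 to 4. In TMM-normalized CPM every CCl4 library lay above every vehicle library, and the CCl4 libraries lay close together. In TPM the groups overlapped, with CCl4 3 at 1.89 TPM and vehicle 2 at 2.63 TPM. Its log2 fold change was 0.38 (SE 0.15, 95% interval 0.06 to 0.70), and edgeR's adjusted p of 0.105 missed the threshold. It passed without vehicle 2 (0.46, edgeR adjusted p = 0.0347), the vehicle library nearest to the CCl4 group. The fold change was smaller with library totals (0.25, edgeR adjusted p = 0.393) and upper quartiles (0.29, edgeR adjusted p = 0.278). Length-scaled TPM counts gave 0.29 (edgeR adjusted p = 0.402), and limma on log2(FPKM + 1) without a filter gave 0.03 (adjusted p = 0.866).

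Bmpr1a encodes ALK3, a type I receptor for BMP2, BMP4 and related ligands (chr14:34410734-34503341, minus strand). It had 1.48, 1.85, 1.90 and 3.38 CPM in CCl4 1 to 4, against 6.09, 8.96, 7.28 and 5.00 CPM in vehicle 1 to 4. Every CCl4 library lay below every vehicle library, with CCl4 4 and vehicle 4 the nearest across the gap. The gene rested on 32, 47, 42 and 71 estimated counts in CCl4 1 to 4, against 152, 193, 184 and 125 in vehicle 1 to 4. The mean was 3.17-fold lower in CCl4, with a log2 fold change of -1.66 (SE 0.31, 95% interval -2.35 to -0.98, edgeR adjusted p = 0.00386). It stayed past the threshold in 15 of 16 alternatives, among them each library left out in turn (edgeR adjusted p from 0.00148 to 0.0202). It did not pass in limma on log2(FPKM + 1) without a filter on low values (adjusted p = 0.0776). Kupffer cell and endothelial marker sums were also fully apart between the groups, CCl4 below vehicle, and their part in the Bmpr1a difference was not tested.

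By likeness of profile, the tested genes nearest to Bmpr1a were Slc1a3, which encodes a glutamate transporter, and Cenpv, which encodes a centromere protein. The root-mean-square difference in centred log2 CPM over the 8 libraries was 0.22 for Slc1a3 and 0.23 for Cenpv. Slc1a3 averaged 4.44 ± 1.69 CPM in CCl4 and 14.4 ± 1.7 CPM in vehicle libraries (SD, n = 4 each). Cenpv averaged 1.01 ± 0.32 CPM in CCl4 and 2.62 ± 0.87 CPM in vehicle libraries.

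Smad1, Smad5 and Smad9 encode the Smads that BMP type I receptors phosphorylate. Smad1 (chr8:79338395-79399518, minus strand) had 16.5, 21.6, 21.6 and 22.7 CPM in CCl4 1 to 4, against 25.9, 20.7, 31.0 and 29.1 CPM in vehicle 1 to 4. Vehicle 2 lay within the CCl4 range, and the other vehicle libraries lay above it. The log2 fold change was -0.38 (SE 0.17, 95% interval -0.74 to -0.01, edgeR adjusted p = 0.163), and Smad1 passed without vehicle 2 (-0.48, edgeR adjusted p = 0.0406) and without vehicle 2 and CCl4 4 together (-0.53, edgeR adjusted p = 0.0361).
Smad5 (chr13:56703010-56742377, plus strand) had 16.3, 16.8, 15.2 and 16.3 CPM in CCl4 1 to 4, against 17.5, 13.3, 21.3 and 19.2 CPM in vehicle 1 to 4. The CCl4 libraries lay inside the wider vehicle range. Smad5 had a log2 fold change of -0.14 (SE 0.16, 95% interval -0.50 to 0.22, edgeR adjusted p = 0.640).
Smad9 (chr3:54755582-54801257, plus strand) had 0.93, 1.30, 0.91 and 0.95 CPM in CCl4 1 to 4, against 0.32, 0.46, 1.11 and 0.36 CPM in vehicle 1 to 4. Vehicle 3 lay among the CCl4 libraries and the other vehicle libraries below them. Smad9 had a log2 fold change of 0.85 (SE 0.52, 95% interval -0.28 to 1.98, edgeR adjusted p = 0.316), an interval too wide at this low level to separate no difference from a large one.

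Smad4 encodes the common partner of all receptor-activated Smads (chr18:73639009-73703780, minus strand). It had 16.5, 17.1, 15.6 and 12.9 CPM in CCl4 1 to 4, against 12.5, 18.0, 12.9 and 9.76 CPM in vehicle 1 to 4. The groups overlapped, and vehicle 2 was the highest library of all. Smad4 had a log2 fold change of 0.23 (SE 0.20, 95% interval -0.20 to 0.66, edgeR adjusted p = 0.506).

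Smad6 and Smad7 encode the inhibitory Smads, which compete at the receptors and recruit ubiquitin ligases. Smad6 (chr9:63953076-64022059, minus strand) had 4.53, 4.61, 4.62 and 5.80 CPM in CCl4 1 to 4, against 7.13, 4.88, 3.88 and 5.60 CPM in vehicle 1 to 4. The vehicle libraries reached both above and below the CCl4 ones, and the log2 fold change was -0.14 (SE 0.24, 95% interval -0.66 to 0.39, edgeR adjusted p = 0.771).
Smad7 (chr18:75367529-75395935, plus strand) had 2.04, 2.68, 1.49 and 2.47 CPM in CCl4 1 to 4, against 1.60, 4.69, 2.22 and 2.64 CPM in vehicle 1 to 4. Vehicle 2 stood well above the rest, and the other libraries overlapped. The log2 fold change was -0.36 (SE 0.38, 95% interval -1.19 to 0.48, edgeR adjusted p = 0.610), and it was 0.01 without vehicle 2.

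The transcripts behind each member were compared as the share of the gene's summed TPM held by its leading transcript. For Acvrl1 the leading transcript, Acvrl1-202, held 27.3%, 41.9%, 40.5% and 29.9% in CCl4 1 to 4, against 42.6%, 62.9%, 47.7% and 61.4% in vehicle 1 to 4. The groups did not overlap, CCl4 lying lower. Means were 34.9 ± 7.4% in CCl4 and 53.6 ± 10.1% in vehicle libraries (SD, n = 4 each; two-sided exact permutation p = 0.0286, the smallest that 4 against 4 allows, adjusted p = 0.129 over 9 genes).
For Eng, the leading Eng-201 held 57.4 ± 4.1% in CCl4 and 49.1 ± 4.2% in vehicle libraries (SD, n = 4 each; exact permutation p = 0.0286, adjusted p = 0.129). In these TPM shares the Eng groups did not overlap either, CCl4 lying higher. Eng-203, a 258-base transcript not marked as protein-coding, held 9.36% of Eng TPM in CCl4 and 20.1% in vehicle libraries on average. It rested on 0 to 12 estimated counts in CCl4 and 6 to 16 in vehicle libraries. By share of estimated counts, the groups overlapped for Eng-201. Of 9 genes with more than 1 transcript, 0 passed after adjustment and 2 had an unadjusted exact permutation p under 0.05, Acvrl1 and Eng. With so few libraries a gene fully apart between the groups could not pass this adjustment by itself. The absence of calls is therefore no sign of equal shares. A further Acvrl1 transcript, Acvrl1-205, was picked out after its values were seen and has no test. It had 7.58, 7.76, 7.16 and 7.66 TPM in CCl4 1 to 4, against 1.51, 4.10, 3.19 and 4.33 TPM in vehicle 1 to 4, so the groups did not overlap. kallisto divides reads among transcripts that share most of their sequence, so these shares carry an uncertainty beyond the spread between libraries.

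**Figure D3:**
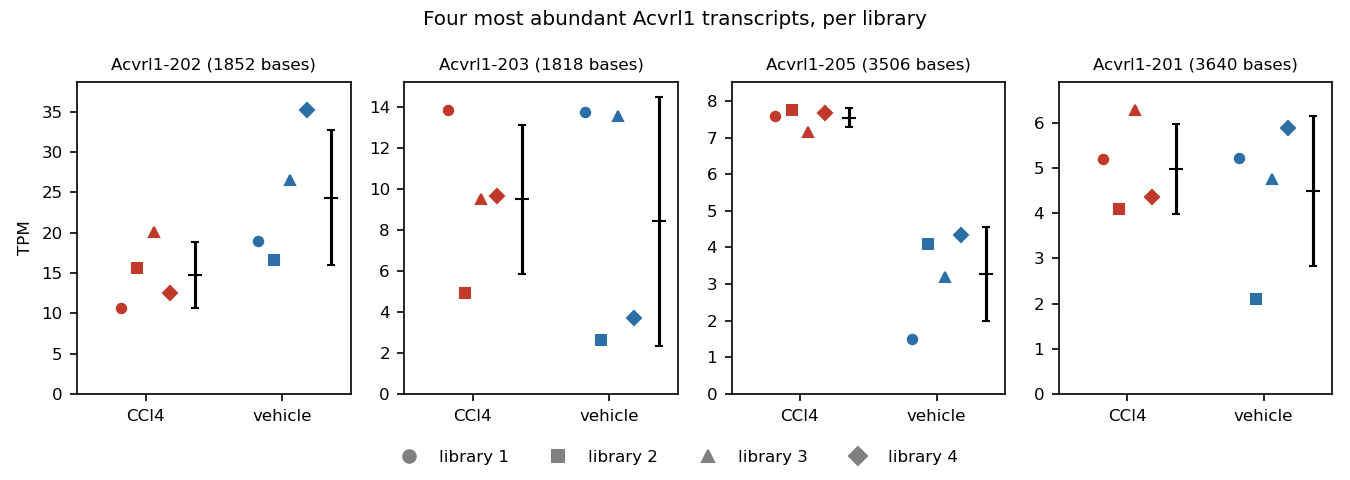
TPM of the 4 most abundant Acvrl1 transcripts (linear axes from 0) in CCl4 (red) and vehicle (blue) libraries, 1 point per library with the mean and SD (n = 4 per group). Acvrl1-202 lies lower in most CCl4 libraries, Acvrl1-205 lies between 7.16 and 7.76 TPM in CCl4 and at 4.33 TPM or below in vehicle libraries, and the other transcripts overlap.

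Around the members, 6 lists of 91 pathway genes held 64 tested genes, of which 14 rose, 9 fell and 41 did not pass, or 35.9% called against 15.2% of all tested genes. That count of 23 called genes was 12 without vehicle 4 (9 higher, 3 lower) and 14 without CCl4 1 (10 higher, 4 lower), CCl4 3 (10 higher, 4 lower) or vehicle 3 (8 higher, 6 lower). The lists were chosen with earlier results of these data known, so the contrast with all tested genes is descriptive and no independent support. Of 8 tested BMP-type ligand genes, 1 rose, 4 fell and 3 did not pass, with a median log2 fold change of -1.05. Gdf2, which encodes BMP9 and is made in liver mainly by stellate cells, had 1.57, 0.91, 4.26 and 2.24 CPM in CCl4 1 to 4, against 8.57, 16.3, 4.23 and 16.6 CPM in vehicle 1 to 4. All vehicle libraries except vehicle 3 lay above the CCl4 ones. Its log2 fold change was -2.35 (SE 0.51; adjusted p = 0.00879 with edgeR). Bmp2, a ligand made by liver endothelial cells, averaged 18.2 ± 6.3 CPM in CCl4 and 37.6 ± 8.7 CPM in vehicle libraries (log2 fold change -1.05, SE 0.25, edgeR adjusted p = 0.0161). The Bmp2 call ended without CCl4 2 (edgeR adjusted p = 0.051) or vehicle 4 (edgeR adjusted p = 0.0524).
Bmp5 and Bmp6, both ligand genes at low levels, fell by 1.87 and 1.63 on the log2 scale (edgeR adjusted p = 0.0259 and 0.0423). Bmp5 lost its call when any of 5 libraries was left out, CCl4 1, 2 or 3 or vehicle 2 or 4 (edgeR adjusted p 0.0509 to 0.095), and Bmp6 lost it when any library other than CCl4 4 was left out (0.0573 to 0.123). With length-scaled TPM counts Bmp6 stood at -0.61 (edgeR adjusted p = 0.523), and it did not pass without a filter on low counts (edgeR adjusted p = 0.0853). Bmp3, Bmp4 and Bmp7, further ligand genes, had log2 fold changes of 0.12, -1.05 and 0.64, and none passed (edgeR adjusted p = 0.914, 0.242 and 0.430). Gdf3, a ligand gene known from macrophages of inflamed tissue in mice, averaged 39.5 ± 10.4 CPM in CCl4 and 1.81 ± 0.77 CPM in vehicle libraries (log2 fold change 4.43, SE 0.32, edgeR adjusted p = 1.65e-05).

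Markers of the cells that make some of these ligands moved in the same libraries. Endothelial marker sums were lower in CCl4, as given above, and Stab2, a scavenger receptor of liver endothelium, averaged 82.4 ± 19.2 CPM in CCl4 and 218.6 ± 75.1 CPM in vehicle libraries. Of 12 stellate cell markers, 4 rose, 5 fell and 3 did not pass, none was at 0 in all libraries of a group, and their summed level was 599.3 to 955.6 CPM in CCl4 and 690.3 to 1469 CPM in vehicle libraries. The part of stellate and endothelial RNA in the ligand values was not tested.

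Among 10 other receptors and Smads tested, 2 rose, 1 fell and 7 did not pass, with a median log2 fold change of 0.11. Tgfbr1, the type I receptor for TGF-beta, had 293.8, 207.3, 269.8 and 261.2 CPM in CCl4 1 to 4, against 80.9, 60.2, 83.5 and 82.5 CPM in vehicle 1 to 4. Every CCl4 library lay far above every vehicle library (log2 fold change 1.75, SE 0.17, edgeR adjusted p = 6.16e-05). Smad3, which TGF-beta receptors phosphorylate, averaged 22.6 ± 3.3 CPM in CCl4 and 7.08 ± 2.42 CPM in vehicle libraries (log2 fold change 1.67, SE 0.25, edgeR adjusted p = 0.00109). Tgfbr3, the co-receptor betaglycan, fell by 0.83 on the log2 scale (edgeR adjusted p = 0.0364), a call that ended when any of CCl4 1, 2, 3 or 4 or vehicle 2 or 4 was left out (edgeR adjusted p 0.0674 to 0.113) and without vehicle 2 and CCl4 4 together (-0.68, edgeR adjusted p = 0.103). Some markers of further cell types also rose. Beside the sum of monocyte-derived and scar macrophage markers given above, neutrophil markers summed to 241.1 to 530.3 CPM in CCl4 and 101.9 to 230.0 CPM in vehicle libraries, where Elane, named after its values were seen, was at 0 in each. Mesothelial and cholangiocyte markers summed to 54.2 to 154.2 CPM in CCl4 and 6.76 to 38.9 CPM in vehicle libraries. The part of these cells in the Tgfbr1, Smad3 and Gdf3 values, and in those of the modulators Twsg1 and Fstl1 that follow, was not tested.

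Of 11 tested extracellular modulators and co-receptors, 4 rose, 1 fell and 6 did not pass, with a median log2 fold change of 0.58. Twsg1, which binds BMPs together with chordin, averaged 28.1 ± 5.7 CPM in CCl4 and 12.9 ± 4.1 CPM in vehicle libraries (log2 fold change 1.13, edgeR adjusted p = 0.0106). Kcp, a secreted enhancer of BMP signalling, averaged 10.7 ± 1.9 CPM in CCl4 and 21.3 ± 4.8 CPM in vehicle libraries (log2 fold change -0.99, edgeR adjusted p = 0.00665). Fstl1, a secreted BMP-binding protein, and Bambi, a pseudoreceptor that dampens BMP and TGF-beta signals, rose by 1.52 and 0.57 on the log2 scale (edgeR adjusted p = 0.0207 and 0.0352). Fstl1 lost its call when CCl4 1 or 3 or vehicle 1 or 3 was left out (edgeR adjusted p 0.0561 to 0.0602) and without vehicle 2 and CCl4 4 together (1.48, edgeR adjusted p = 0.0504). Bambi lost it when any library other than CCl4 2 and vehicle 2 was left out (edgeR adjusted p 0.0537 to 0.0922) and with scaling by library totals (0.138) or upper quartiles (0.105).

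Of 18 tested intracellular inhibitors and phosphatases, 2 rose and 16 did not pass, with a median log2 fold change of 0.21. Skil, a Smad corepressor, rose by 0.69 on the log2 scale (edgeR adjusted p = 0.0221), and Fkbp1a, which keeps type I receptors silent, by 0.54 (edgeR adjusted p = 0.0396). Skil lost its call without CCl4 2, vehicle 3 or vehicle 4 (edgeR adjusted p 0.0512 to 0.0796). Fkbp1a lost it when any of CCl4 1, 2 or 3 or vehicle 1, 3 or 4 was left out (edgeR adjusted p 0.0524 to 0.119) and with scaling by library totals (0.0756) or upper quartiles (0.0695).
Of 10 tested Smad partner factors, 5 rose, 1 fell and 4 did not pass, with a median log2 fold change of 0.56. Runx1, a transcription factor that joins Smads at shared sites, averaged 53.6 ± 3.1 CPM in CCl4 and 31.7 ± 4.5 CPM in vehicle libraries (log2 fold change 0.76, edgeR adjusted p = 0.00319). In limma on the FPKM values Runx1 did not pass (adjusted p 0.328 to 0.433). Hivep2 and Hivep3, zinc finger adaptors of the Schnurri family, rose by 1.12 and 0.77 on the log2 scale (edgeR adjusted p = 0.00716 and 0.00695), but the direction of Hivep3 turned in the alternatives that use transcript lengths (-0.16 with length-scaled TPM counts, -0.78 with limma on log2(FPKM + 1) and -1.23 on log2(FPKM + 0.1)). Hivep3 passed as lower in both of these limma fits (adjusted p = 0.00668 and 0.00826) and did not pass with limma without a filter (adjusted p = 0.0821). Zeb1, a repressor that binds Smads, fell by 0.61 (edgeR adjusted p = 0.0498), a call that ended when any single library was left out (edgeR adjusted p 0.0592 to 0.106) and without vehicle 2 and CCl4 4 together (-0.44, edgeR adjusted p = 0.0944).

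**Figure D4:**
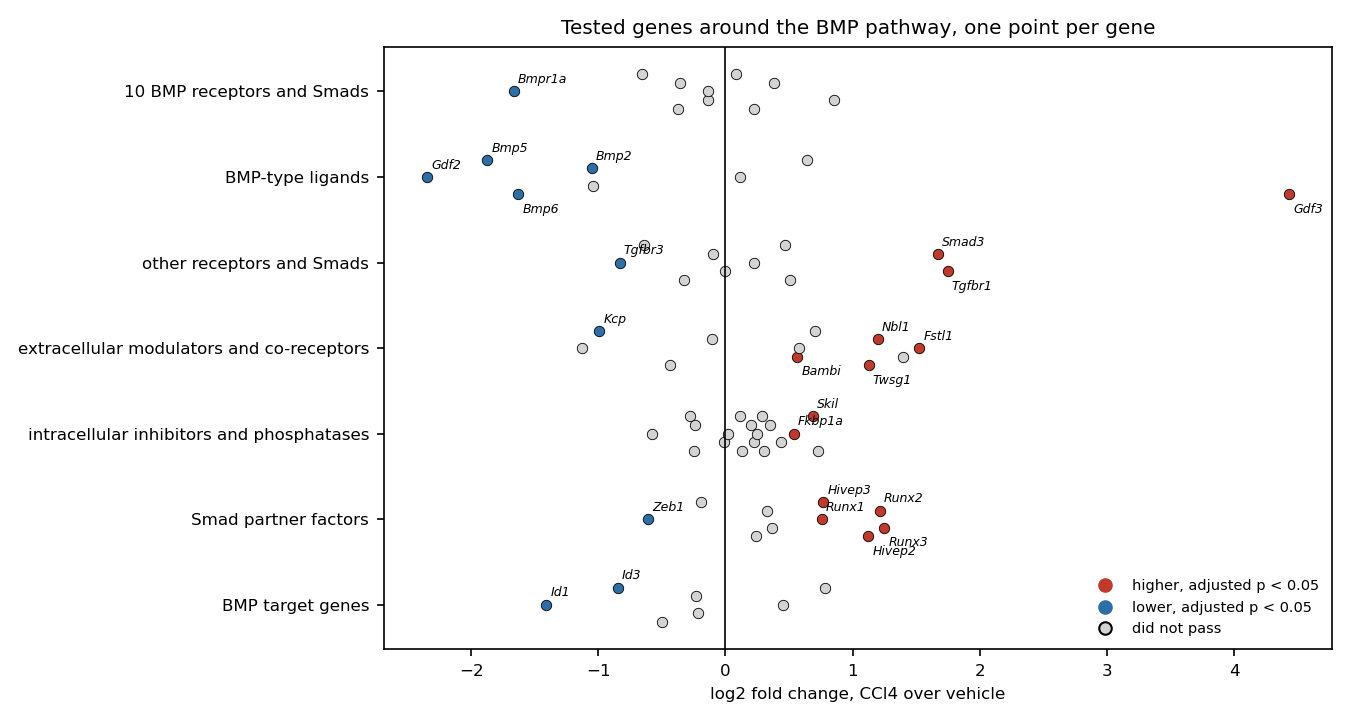
Log2 fold change, CCl4 over vehicle, of the 10 members and of the tested genes of the 6 pathway lists, 1 point per gene, red where higher and blue where lower at an edgeR adjusted p under 0.05, grey where the gene did not pass. Among the ligands 4 points fall and Gdf3 stands at 4.43; Bmpr1a is the coloured point among the members.

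BMP target genes are read as an output of the pathway, although other signals act on them too. Of 7 tested target genes, 2 fell and 5 did not pass, with a median log2 fold change of -0.23. Id1, which encodes an inhibitor of basic helix-loop-helix factors, had 6.71, 18.5, 9.14 and 9.18 CPM in CCl4 1 to 4, against 25.5, 30.7, 38.1 and 21.6 CPM in vehicle 1 to 4. CCl4 2 was high within its group, and all CCl4 libraries lay below all vehicle libraries. The log2 fold change was -1.41 (SE 0.29, edgeR adjusted p = 0.00708), and Id1 passed with each library left out in turn.
Id3, of the same family and known to be needed for Kupffer cell development in mice, had 344.3, 709.9, 503.2 and 497.0 CPM in CCl4 1 to 4, against 896.0, 773.2, 1049 and 980.7 CPM in vehicle 1 to 4. These groups did not overlap either, CCl4 2 and vehicle 2 being nearest. The log2 fold change was -0.85 (SE 0.21, edgeR adjusted p = 0.0195). The Id3 call ended without CCl4 1 (edgeR adjusted p = 0.0509), CCl4 3 (0.0594), vehicle 3 (0.0663) or vehicle 4 (0.0569).
Id2, another Id gene, was abundant in both groups, at 1241 ± 241 CPM in CCl4 and 1458 ± 176 CPM in vehicle libraries (log2 fold change -0.23, edgeR adjusted p = 0.446). Id4, the transcription factor genes Atoh8 and Hey1, and the iron hormone gene Hamp had log2 fold changes of -0.50, -0.22, 0.45 and 0.79, and none passed (edgeR adjusted p = 0.723, 0.864, 0.307 and 0.468). Single libraries moved these values: Hamp was 0.04 without CCl4 1 and 1.32 without vehicle 4, Id4 was -1.55 without CCl4 4 and -0.06 without vehicle 4, Hey1 ran from 0.17 to 0.68, and Atoh8 ran from -0.54 to 0.13. Kupffer cells and endothelial cells both express Id1 and Id3, and the marker sums of both cell types were fully apart between the groups; their part in the Id1 and Id3 differences was not tested.

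**Figure D5:**
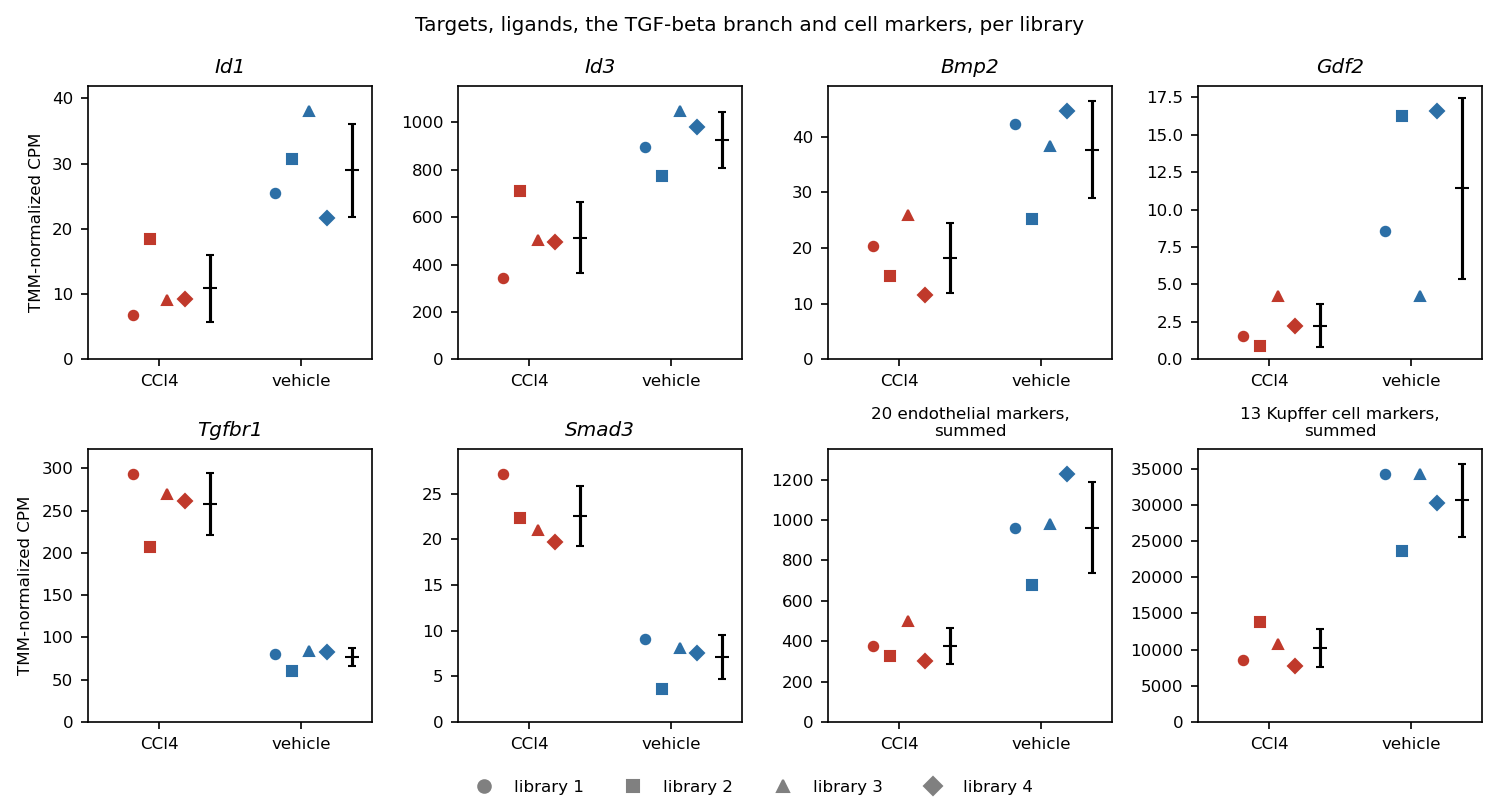
TMM-normalized CPM (linear axes from 0) of 2 target genes, 2 ligand genes, 2 TGF-beta branch genes and the summed endothelial and Kupffer cell markers in CCl4 (red) and vehicle (blue) libraries, 1 point per library with the mean and SD (n = 4 per group). Id1, Id3 and both marker sums lie lower and Tgfbr1 and Smad3 higher in every CCl4 library, while Bmp2 and Gdf2 overlap at 1 library of a group.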

How the data were processed

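RNA of sorted liver macrophages was amplified by the SMART-Seq HT method and made into NEBNext Ultra II libraries, per the labels' protocols, and groups came from the treatment label. Estimated counts and TPM per transcript were made with kallisto and deposited by the authors. The FPKM values per gene were deposited by the authors, and no source used here states how they were made. The build was mm10, per the submitters' processing notes; tool versions and the transcript release are not stated there.

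Transcripts were assigned to GENCODE M21 genes by identifier without the version; 1089 of 117494 did not match and held 0.29% to 0.313% of the estimated counts. No strand-marking step is named, so reads of overlapping genes cannot be told apart. Estimated counts were summed per gene, rounded, filtered with filterByExpr (minimum count 10, minimum total 15) and tested with edgeR 4.0.16 (R 4.3.3): quasi-likelihood test, TMM, group as the sole term, two-sided, Benjamini-Hochberg over 15212 genes, threshold 0.05. CPM are TMM-normalized, TPM as deposited and summed per gene. SE is the size of the log2 fold change divided by the square root of F. Libraries of a group were no near-duplicates (mean chi-square per gene 30.02 or more). The test was checked on simulated data with 200 changed genes, none of them of low count. It recovered 73% of those changed by 1 on the log2 scale and 98% of those changed by 2, and 5% of its calls were false. The simulated spread depended on the level of a gene alone, and no simulated library stood apart. These rates therefore need not hold for the real libraries. Shares of leading transcripts (highest mean TPM over all libraries) were compared by an exact permutation test. Motif letters were searched in RefSeq windows.

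The members, gene lists and tests were chosen with earlier results of these data known. Named genes are the members, per pathway list up to 3 called genes a direction, all tested ligands and targets, for markers 1 or both of the 2 most abundant of a list (other markers named are marked as such), and the 2 nearest profiles to Bmpr1a. Alternatives were DESeq2 1.42.0, library totals or upper-quartile factors, no filter, length-scaled TPM counts, limma 3.58.1 on log2(FPKM + 1) with and without a filter (FPKM of at least 1 in 4 samples) and on log2(FPKM + 0.1), a replicate block, each library left out, and vehicle 2 and CCl4 4 left out together.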

Additional observations from a re-analysis of the deposited data

Results flagged for a closer look

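Smad6 in CCl4 4, at 5.80 CPM, lay far above the other CCl4 libraries (4.53, 4.61 and 4.62 CPM), and Smad9 in CCl4 2, at 1.30 CPM, lay far above the other CCl4 libraries (0.93, 0.91 and 0.95 CPM). These were 2 of 38 groups of 4 libraries examined for a single library apart from the rest, and chance alone marks about 5% of such groups. Neither gene passed the comparison of CCl4 with vehicle.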

How the results depend on the processing

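The edgeR comparison called 1358 genes higher and 953 lower in CCl4, 23 genes of the pathway lists (14 higher, 9 lower) and 1 member (lower). Scaling moved the split: library totals alone gave 1082 higher and 1431 lower, upper-quartile factors 1226 higher and 1356 lower, and the median log2 fold change of all genes moved from -0.03 to -0.16 and -0.12. With library totals 2 members passed, both lower (Bmpr1a and Eng; 16.5% of all tested genes passed), and without vehicle 2 and CCl4 4 together 3 passed, all lower. DESeq2 called 1787 genes higher and 1231 lower. Length-scaled TPM counts gave 15 pathway genes, 9 of them higher. On the deposited FPKM values limma gave 991 genes with a pseudocount of 1 (448 higher, 543 lower), 957 with 0.1 (436 higher, 521 lower) and 650 without a filter (335 higher, 315 lower). Pathway calls were 8, 8 and 3 in these settings (3, 3 and 2 higher; 5, 5 and 1 lower), and member calls were 0 with 0.1 and 0 without a filter; 4 members, Bmpr1a not among them, passed that filter. With single libraries left out, calls ran from 1582 to 2666 genes (1004 to 1503 higher, 578 to 1163 lower, the fewest without CCl4 1), members from 1 to 4 (0 to 1 higher, 1 to 3 lower, the most without vehicle 2) and pathway genes from 12 to 20 (8 to 14 higher, 3 to 7 lower).

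Acvrl1 turned to -0.077 with length-scaled counts, -0.063 with library totals, -0.0030 with upper quartiles, -0.25 with limma at a pseudocount of 1 (with and without the filter), and -0.29 at 0.1. With single libraries left out it ran from -0.053 to 0.17, Smad6 from -0.26 to 0.052, Smad7 from -0.53 to 0.013, Atoh8 from -0.54 to 0.13 and Bmp3 from -0.43 to 0.35. Atoh8 was 0.0029 and Bmp3 -0.00039 with limma without a filter, and Bmp3 was -0.040 with the replicate block and -0.32 without vehicle 2 and CCl4 4. Hivep3 turned to -0.16 with length-scaled counts, -0.78 with limma at a pseudocount of 1 (both filters) and -1.23 at 0.1. Limma without a filter ended the calls of Bmpr1a, Bmp2, Bmp5, Gdf2, Id1, Id3, Kcp, Smad3, Tgfbr3, Twsg1, Fstl1, Bambi, Fkbp1a, Skil, Hivep2, Runx1 and Zeb1 (adjusted p 0.0776 to 0.665). Length-scaled TPM counts ended those of Bambi, Bmp6, Fstl1, Skil, Tgfbr3 and Zeb1 (edgeR adjusted p 0.0503 to 0.523), the absence of a count filter those of Bmp6 and Zeb1 (0.0853 and 0.134), and the replicate block those of Bambi, Bmp6, Fkbp1a, Tgfbr3 and Zeb1 (0.0607 to 0.0947). The leading-transcript share difference in percentage points turned to -0.41 for Smad5 and -0.49 for Smad7 on estimated counts, and with single libraries left out ran from -5.32 to 6.65 and from -13.9 to 15.7. The cause was not tested. Leading-transcript shares called stayed at 0 in each alternative run. With so few libraries a single gene could hardly pass the adjustment, so this does not show stability.

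Replicate numbers did not pair the libraries (correlations of same-numbered deviations -0.24 to 0.04). No CCl4 library correlated best with the vehicle library of its own number, and the reverse was not computed. The replicate block gave 1281 higher and 829 lower genes, with Bmpr1a at -1.70 (edgeR adjusted p = 0.0157). Bmpr1a, Smad7 and Smad9 rest on few counts, which widens their intervals.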
